A study of Mus musculus with 18 samples.

Results

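The genes described here mark Kupffer cells, the macrophages that live in the liver, and macrophages and other myeloid cells in general. They were chosen by name, with earlier results of these data known. All 38 were found among the 25266 genes measured in the livers of 18 mice. They were read as 6 lists: 5 resident Kupffer genes (Clec4f, Vsig4, Timd4, Cd5l and Marco), 6 tissue macrophage genes, 5 lipid-associated genes (Trem2, Gpnmb, Itgax, Lgals3 and Mmp12), 14 general myeloid genes, 4 antigen presentation genes and 4 genes of monocytes and their recruitment. The study asked what the loss of SAPS3, a regulatory subunit of protein phosphatase 6 encoded by Ppp6r3, does to liver gene expression under a fatty diet. FF mice carry Ppp6r3 fl/fl alleles without Cre. LKO mice carry the same floxed alleles with the Alb-Cre transgene on C57BL/6, whose albumin promoter is active in hepatocytes. Male mice were put on a diet at 8 weeks of age, and their livers were taken after 16 weeks. The diets were a control diet (CD) with 10 kcal% fat and a high fat diet (HFD) with 32.5 kcal% fat, which gave 4 FF CD, 4 LKO CD, 5 FF HFD and 5 LKO HFD mice. FF mice stood in for wild type, so a control with Cre and no floxed allele was not part of the comparison.

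Kupffer cells sit in the sinusoids, the small vessels of the liver, and clear bacteria, dead cells and cell debris from the blood. They depend on the growth factor receptor Csf1r and on the transcription factor PU.1, encoded by Spi1, and most of them arise before birth and renew themselves locally. When a liver stores fat, monocytes can enter from the blood through Ccr2 and its ligand Ccl2, and some of the macrophages then turn on Trem2, Gpnmb, Itgax and related genes, which handle lipid from dying cells. Macrophages also present antigen on MHC class II, as do dendritic cells and B cells. In RNA of a whole liver, fewer cells of a type and less RNA per cell cannot be told apart.

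Values are RPKM, the reads of a gene scaled to its length and to the total reads of the library, so levels can be compared between genes. The steps between low values put the depth at 23408015 to 36953553 reads a mouse, with overlapping ranges in the 4 groups. Ppp6r3, the targeted gene, was at 8.38 to 10.98 RPKM in FF CD, 3.88 to 4.08 in LKO CD, 7.55 to 8.82 in FF HFD and 4.22 to 4.87 in LKO HFD mice, so every mouse matched its labelled genotype. The labels named no batch. The macrophage markers themselves were present in every liver: Clec4f rested on 622 to 2205 reads and Timd4 on 75 to 177. In this text a gene was called where limma on log2(RPKM + 1) gave an adjusted p under 0.05 over all 11090 tested genes and a fold change over 1.5. A mean of at least 0.5 RPKM over the 18 mice was required for the test, which 30 of the 38 members passed. Trem2, Gpnmb, Itgax, Mmp12, Itgam, Ccr2, Ly6c2 and Cx3cr1 were below it and are given by mouse and from the same fit without the filter.

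RefSeq promoter sequences on GRCm38.p6 were at hand for 28 of the 38 members, and the 250 bases before the start are shown for the 6 members that were called in a diet comparison and had an entry. Capitals mark the letters GAGGAA, found in sites of the ETS factor PU.1, or their reverse complement, and the longer GAGGAAGT where it occurs.
Vsig4 (chrX:96293439-96293688, minus strand): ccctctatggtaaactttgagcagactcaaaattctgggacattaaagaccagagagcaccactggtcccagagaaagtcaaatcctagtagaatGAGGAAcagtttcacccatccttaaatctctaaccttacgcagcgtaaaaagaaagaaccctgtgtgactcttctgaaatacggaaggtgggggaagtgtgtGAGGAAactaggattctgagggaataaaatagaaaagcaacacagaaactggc
Clec4f (chr6:83656117-83656366, minus strand): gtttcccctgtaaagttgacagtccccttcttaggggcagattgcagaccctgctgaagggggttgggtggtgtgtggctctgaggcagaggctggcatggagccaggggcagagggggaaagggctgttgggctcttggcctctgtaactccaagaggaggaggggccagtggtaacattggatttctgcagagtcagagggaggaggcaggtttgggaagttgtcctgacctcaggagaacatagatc
Lgals3 (chr14:47373610-47373859, plus strand): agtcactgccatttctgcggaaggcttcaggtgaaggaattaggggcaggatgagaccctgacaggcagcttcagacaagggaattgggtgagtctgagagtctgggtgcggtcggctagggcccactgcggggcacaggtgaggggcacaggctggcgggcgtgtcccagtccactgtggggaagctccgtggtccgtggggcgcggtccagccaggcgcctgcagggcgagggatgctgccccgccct
Mmp12 (chr9:7344147-7344396, plus strand): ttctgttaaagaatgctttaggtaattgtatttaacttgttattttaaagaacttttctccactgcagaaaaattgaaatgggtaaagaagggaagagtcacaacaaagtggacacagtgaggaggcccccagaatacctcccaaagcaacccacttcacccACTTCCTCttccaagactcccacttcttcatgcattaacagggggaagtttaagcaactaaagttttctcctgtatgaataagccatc
Ctss (chr3:95526536-95526785, plus strand): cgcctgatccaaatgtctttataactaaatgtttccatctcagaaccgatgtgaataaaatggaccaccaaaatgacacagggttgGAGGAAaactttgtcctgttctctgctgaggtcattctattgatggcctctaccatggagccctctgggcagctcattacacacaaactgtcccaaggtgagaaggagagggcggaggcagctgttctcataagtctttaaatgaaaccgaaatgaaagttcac
Laptm5 (chr4:130913066-130913315, plus strand): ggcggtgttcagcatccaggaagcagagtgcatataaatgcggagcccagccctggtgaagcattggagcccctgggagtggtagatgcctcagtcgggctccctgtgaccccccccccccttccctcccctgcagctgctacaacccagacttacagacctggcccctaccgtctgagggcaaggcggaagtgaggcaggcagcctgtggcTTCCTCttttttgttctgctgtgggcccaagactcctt
Mmp12 has another start in the table, without these letters. GAGGAA on either strand was found in 15 of the 32 member windows, each counted from 250 bases before to 50 bases after a start, and in 28.3% of all 32851 windows. By list it was in 3 of 5 resident Kupffer windows, 1 of 4 tissue macrophage windows and 7 of 11 general myeloid windows. It was in 2 of 6 lipid-associated windows, 0 of 2 antigen presentation windows and 2 of 4 monocyte and recruitment windows. GAGGAAGT was found in 5 member windows, those of Ctss, Cd53, Mmp12 and both of Ly6c2, against 3.20% of all windows. In Ctss it starts 2 bases before the start and runs past the end of the printed sequence. The 2 counts overlap, since the longer letters hold the shorter, and a match is only a description of the letters.

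The members covered a wide range of levels. Cd74, the invariant chain of MHC class II, was highest with a mean of 33.5 RPKM over the 18 mice. It was followed by Cd5l (22.9 RPKM), Lyz2 (22.4), Clec4f (19.5) and H2-Aa (19.3). The resident Kupffer genes Cd5l, Clec4f and Vsig4 (10.9 RPKM) were among the 8 highest members, Marco (2.71) and Timd4 (2.05) ranked 18 and 24 of 38, and the lipid-associated genes Mmp12 (0.447 RPKM), Trem2 (0.369), Itgax (0.290) and Gpnmb (0.221) were at the foot of the list, beside Ccr2 (0.499), Ly6c2, Cx3cr1 and Itgam.

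In FF mice on HFD, genes of every list but antigen presentation were called higher. The 4 antigen presentation genes had log2 fold changes above 0 without a call. Of the 30 tested members, 9 were called, all of them higher: Vsig4, Adgre1, Csf1r, Lgals3, Ctss, Cd14, Laptm5, Tyrobp and Ccl2. Over all tested genes 5.11% were called higher. Since the members were chosen with earlier results of these data known, such shares are a description and no test of the list. The log2 fold change was above 0 in all 30 members, with a median of 0.59 against 0.07 over the 11090 tested genes. Of the tested genes, 63.2% lay above 0. By the adjusted p alone 12 members passed, since Spi1 (0.58), Cybb (0.51) and Cd53 (0.43) missed only the fold. An unadjusted p under 0.05 by limma was found for 20 of the 30 members and for 3734 of the 11090 tested genes. The ranges of the FF groups did not overlap in 4 of the 30 members, Spi1, Cybb, Laptm5 and Ccl2, while 14.0% of all tested genes lay wholly higher in FF HFD. That share of members is near the background. FF HFD 1 was the lowest of the 5 FF HFD mice in 35 of the 38 members and above all FF CD mice in 7. Without FF HFD 1, 16 members were called. Without FF CD 3 the calls were Cd14, Tyrobp and Ccl2, and they were Ccl2, Cd14, Csf1r, Ctss and Tyrobp without FF HFD 2 and likewise without FF HFD 3. In all such statements each mouse was left out alone. After quantile normalization 4 members were called (Cd14, Csf1r, Ctss and Tyrobp). The share of all tested genes is not given for the counts by the adjusted p alone, with a mouse left out or after normalization. Folds given below as a number of times are ratios of mean RPKM, while log2 fold changes are on the log2(RPKM + 1) scale.

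**Figure D1:**
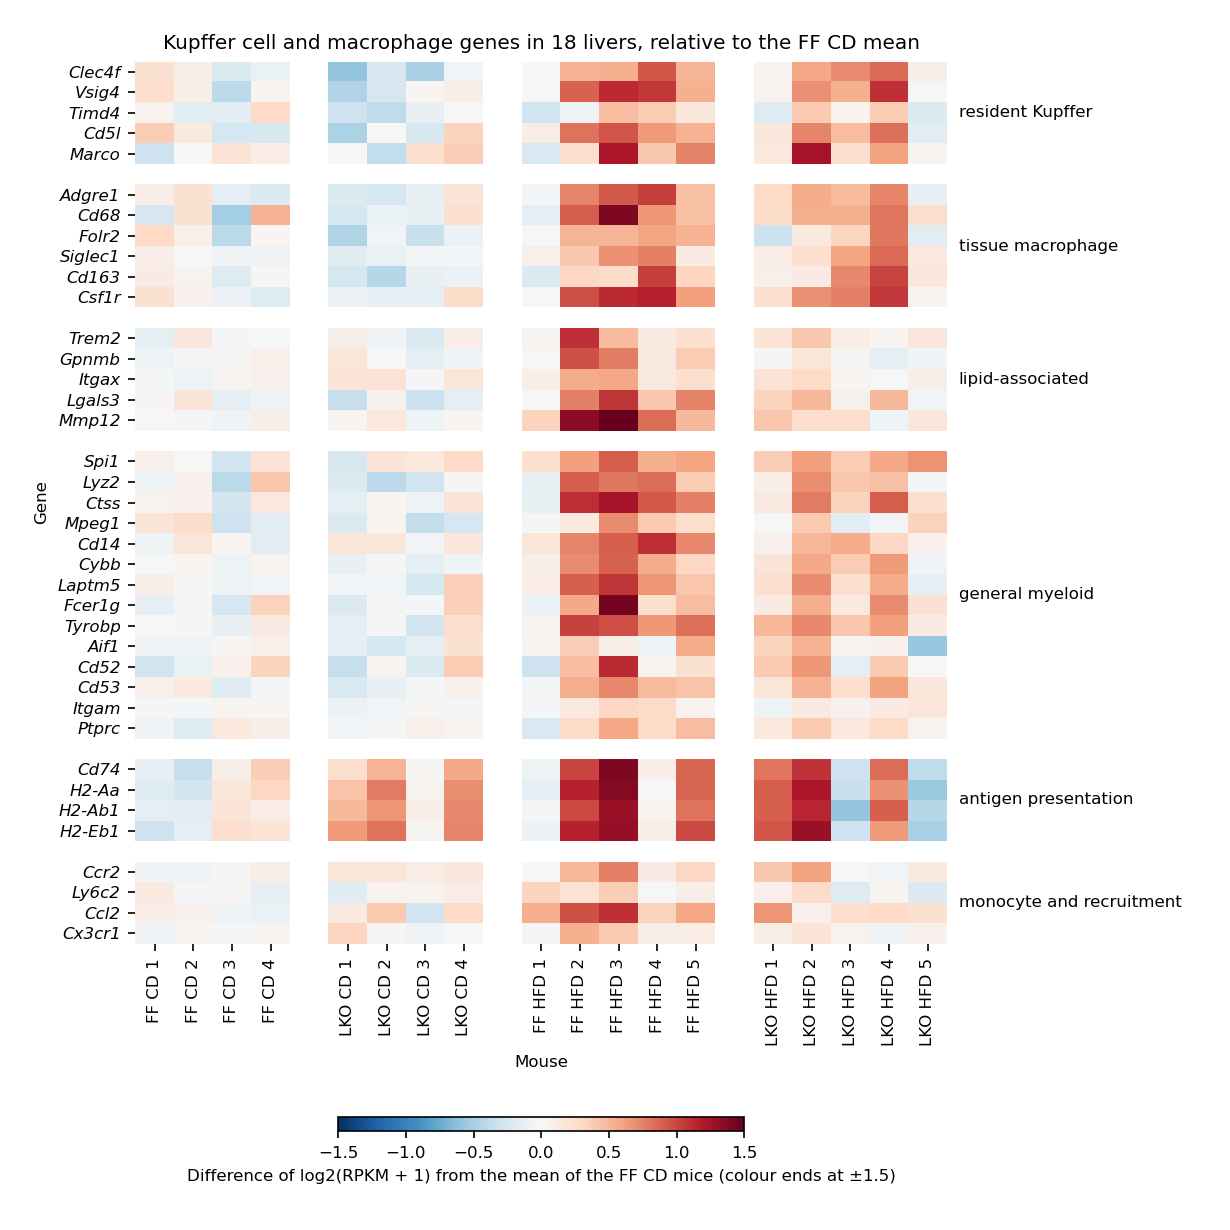
Each row is 1 of the 38 members and each column 1 of the 18 mice. Colour gives log2(RPKM + 1) minus the mean of the 4 FF CD mice, and is capped at 1.5. FF HFD 2 to 5 and LKO HFD 2 to 4 are red in most rows, FF HFD 1 and LKO HFD 5 are near the CD mice, and the antigen presentation rows follow another order of mice than the resident Kupffer rows.

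Among the resident Kupffer genes, Vsig4 was the 1 called in FF mice and Clec4f the 1 called in LKO mice. Clec4f, a lectin made by Kupffer cells, was at 19.2, 17.3, 13.8 and 15.1 RPKM in FF CD and 10.4, 13.6, 11.3 and 15.7 in LKO CD mice. It was at 16.3, 23.7, 24.1, 31.9 and 23.6 RPKM in FF HFD and 16.7, 24.7, 27.2, 29.97 and 17.3 in LKO HFD mice. All 5 LKO HFD mice lay above all 4 LKO CD mice, and FF HFD 1 lay within the FF CD range. The mean rose 1.82-fold in LKO mice (log2 fold change 0.80, SE 0.19, adjusted p = 0.0291) and was 1.46-fold higher in FF mice without passing the test (log2 fold change 0.50, SE 0.19, adjusted p = 0.0624). The LKO call was lost without LKO CD 1, LKO CD 3, LKO HFD 3 and LKO HFD 4 (adjusted p = 0.0567 to 0.102), and in FF mice Clec4f was called without FF HFD 1 (adjusted p = 0.0188).

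Vsig4, a complement receptor that takes up opsonised particles, was at 9.84, 8.68, 5.93 and 8.33 RPKM in FF CD and 8.10, 15.7, 18.7, 17.9 and 12.1 in FF HFD mice. It was at 5.63, 6.61, 8.23 and 8.68 RPKM in LKO CD and 8.45, 13.6, 12.2, 18.5 and 8.12 in LKO HFD mice. FF HFD 1 again sat among the CD mice, and so did LKO HFD 1 and LKO HFD 5. The difference was 1.77-fold in FF mice (log2 fold change 0.72, SE 0.23, adjusted p = 0.0369) and 1.67-fold in LKO mice, where it did not pass (log2 fold change 0.63, SE 0.23, adjusted p = 0.129). The FF call was lost without FF CD 2, FF CD 3, FF CD 4, FF HFD 2, FF HFD 3 and FF HFD 4 (adjusted p = 0.0587 to 0.133).

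Cd5l, a secreted protein of tissue macrophages also called AIM, was at 23.6, 20.2, 14.9 and 15.1 RPKM in FF CD and 19.6, 32.5, 35.8, 28.8 and 26.3 in FF HFD mice, and its 1.55-fold difference missed the threshold (log2 fold change 0.60, SE 0.21, adjusted p = 0.0535). It passed without FF CD 1, LKO CD 4, FF HFD 1, LKO HFD 4 and LKO HFD 5 (adjusted p = 0.0221 to 0.0481). In LKO mice it was at 17.3 ± 4.498 (SD, n = 4) under CD and 25.1 ± 6.97 (SD, n = 5) under HFD (log2 fold change 0.50, SE 0.21, adjusted p = 0.175). Marco, a scavenger receptor for bacteria, reached 5.84 RPKM in FF HFD 3 and 5.87 in LKO HFD 2, while the other 16 mice lay between 1.27 and 3.89. Its diet differences were smaller than the spread between mice in both genotypes (95% intervals of the log2 fold change -0.06 to 1.02 in FF and -0.15 to 0.94 in LKO). Timd4, the phosphatidylserine receptor of long-lived resident Kupffer cells, was at 2.08, 1.63, 1.63 and 2.65 RPKM in FF CD and 1.42, 1.82, 3.10, 2.87 and 2.35 in FF HFD mice. These groups overlapped widely, and the log2 fold change of 0.13 (95% interval -0.22 to 0.47) was the smallest of the 30 members in FF mice. In LKO mice Timd4 was at 1.60 ± 0.333 (SD, n = 4) under CD and 2.20 ± 0.650 (SD, n = 5) under HFD, with an interval of -0.06 to 0.63. The ratios between the resident genes varied to different degrees: Clec4f was 0.674 to 1.11 times Cd5l, and Vsig4 0.430 to 0.774 times Clec4f, over the 18 mice. Marco was 0.0709 to 0.242 and Timd4 0.0761 to 0.175 times Clec4f.

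**Figure D2:**
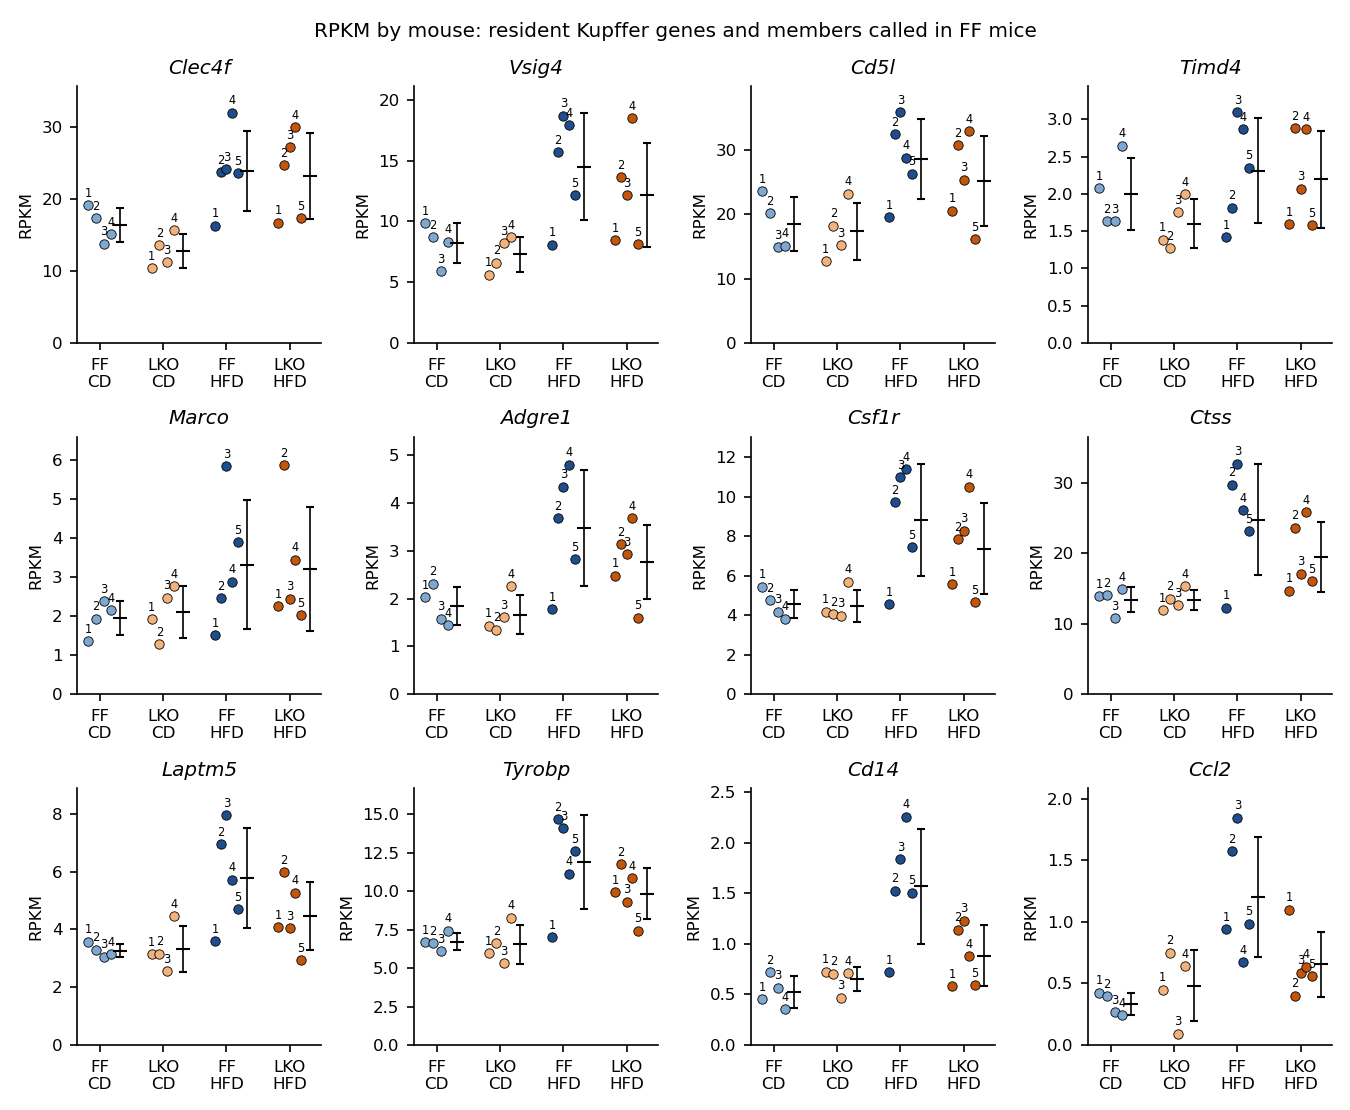
RPKM of 12 members in each mouse, with the mouse number beside each point and the mean and SD of each group at its right. FF HFD 2 to 5 lie above FF HFD 1 in every panel except that of Ccl2, and Timd4 overlaps in all 4 groups.

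Of the 6 tissue macrophage genes, Csf1r and Adgre1 rose in FF mice on HFD. Csf1r, the receptor of the macrophage growth factor, was at 5.44, 4.75, 4.18 and 3.83 RPKM in FF CD and 4.55, 9.75, 10.99, 11.4 and 7.45 in FF HFD mice. FF HFD 1 stayed inside the CD range and the other 4 were above it. The mean was 1.94-fold higher (log2 fold change 0.77, SE 0.22, adjusted p = 0.0174), and the call was lost without FF CD 3 (adjusted p = 0.0528). Adgre1, which encodes the macrophage marker F4/80, was at 2.04, 2.31, 1.58 and 1.45 RPKM in FF CD and 1.78, 3.68, 4.34, 4.81 and 2.82 in FF HFD mice. It rose 1.89-fold (log2 fold change 0.62, SE 0.19, adjusted p = 0.0287), a call lost without FF CD 3, FF CD 4, FF HFD 2, FF HFD 3 and FF HFD 4 (adjusted p = 0.0621 to 0.0841). In LKO mice the same genes had log2 fold changes of 0.58 (Csf1r, adjusted p = 0.131) and 0.49 (Adgre1, adjusted p = 0.147) by limma.

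The other tissue macrophage genes did not pass in either genotype. Cd68, a lysosomal glycoprotein, was at 4.22 ± 1.67 RPKM (SD, n = 4) in FF CD and 7.38 ± 3.26 (SD, n = 5) in FF HFD mice, where FF HFD 3 alone had 12.3 (log2 fold change 0.65, SE 0.24, adjusted p = 0.0666). It was called without FF CD 4 and FF HFD 1 (adjusted p = 0.0106 to 0.0295). Cd163, the receptor for haemoglobin bound to haptoglobin, was at 1.01, 0.790, 1.24 and 1.27 RPKM in LKO CD and 1.54, 1.62, 2.97, 3.88 and 1.71 in LKO HFD mice, so that these groups did not overlap, but its adjusted p was 0.0845 by limma. It was called without FF HFD 4 (adjusted p = 0.0494). Siglec1, a lectin that binds sialic acid, also lay wholly higher in LKO HFD (0.479 to 1.45 RPKM) than in LKO CD mice (0.207 to 0.343, adjusted p = 0.0754 by limma). Folr2, a folate receptor, had log2 fold changes of 0.43 in FF and 0.39 in LKO mice, with intervals of 0.02 to 0.83 and -0.02 to 0.79.

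The general myeloid genes held 4 of the 9 calls. Ctss, the lysosomal protease cathepsin S that trims the invariant chain, was at 13.9, 14.0, 10.8 and 14.9 RPKM in FF CD and 12.3, 29.7, 32.7, 26.1 and 23.1 in FF HFD mice. The 4 high FF HFD mice were well apart from all CD mice. It rose 1.85-fold (log2 fold change 0.78, SE 0.22, adjusted p = 0.0157), and the call was lost only without FF CD 3 (adjusted p = 0.0624). In LKO mice Ctss was at 11.9, 13.5, 12.6 and 15.3 RPKM under CD and 14.7, 23.6, 17.1, 25.8 and 16.0 under HFD, where LKO HFD 1, 3 and 5 were close to the CD mice (log2 fold change 0.48, SE 0.22, adjusted p = 0.197).

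Tyrobp, the adaptor through which Trem2 and other receptors signal, was at 6.70, 6.63, 6.12 and 7.44 RPKM in FF CD and 7.002, 14.7, 14.1, 11.1 and 12.6 in FF HFD mice. FF HFD 1 lay within the CD range and the other 4 lay above it. The rise was 1.77-fold (log2 fold change 0.71, SE 0.17, adjusted p = 0.00627) and was called whichever mouse was left out. Laptm5, a lysosomal membrane protein of blood cells, was at 3.57, 3.30, 3.06 and 3.15 RPKM in FF CD and 3.60, 6.96, 7.97, 5.73 and 4.69 in FF HFD mice, the lowest of them just above the highest CD mouse (log2 fold change 0.63, SE 0.18, adjusted p = 0.0193). Its call was lost, by the adjusted p or by the fold, without FF CD 3, FF HFD 2 and FF HFD 3 (adjusted p = 0.0467 to 0.0568).

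Cd14, the receptor that hands bacterial lipopolysaccharide to Toll-like receptor 4, had the smallest adjusted p of all members in FF mice. It was at 0.450, 0.721, 0.566 and 0.356 RPKM in FF CD and 0.717, 1.53, 1.84, 2.26 and 1.504 in FF HFD mice, a 3.00-fold rise (log2 fold change 0.73, SE 0.15, adjusted p = 0.00213) that was called whichever mouse was left out. In LKO mice it was at 0.725, 0.705, 0.469 and 0.708 RPKM under CD and 0.582, 1.14, 1.23, 0.879 and 0.591 under HFD (log2 fold change 0.18, SE 0.15, adjusted p = 0.505). The 4 highest FF HFD mice lay above every LKO HFD mouse, while FF HFD 1 lay among them.

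Spi1, which encodes PU.1, was at 1.199, 1.10, 0.705 and 1.41 RPKM in FF CD and 1.49, 2.19, 2.91, 2.03 and 2.15 in FF HFD mice, with no overlap. Its adjusted p was 0.00412 by limma and its log2 fold change of 0.58 just missed the fold. It was called without FF CD 1, FF CD 4, FF HFD 1 and FF HFD 4 (adjusted p = 0.00153 to 0.00851). In LKO mice the groups did not overlap either (0.773 to 1.54 against 1.69 to 2.33 RPKM, adjusted p = 0.0700 by limma). Cybb, the catalytic chain of the phagocyte NADPH oxidase, was at 1.72 to 1.97 RPKM in FF CD and 2.05 to 4.31 in FF HFD mice (log2 fold change 0.51, SE 0.14, adjusted p = 0.0170), and was called without FF HFD 1 (adjusted p = 0.00379). Lyz2, lysozyme, which has the near-identical copy Lyz1 and may share its reads, was at 19.0 ± 4.72 RPKM (SD, n = 4) in FF CD and 28.9 ± 7.93 (SD, n = 5) in FF HFD mice (log2 fold change 0.56, SE 0.20, adjusted p = 0.0572), and was called without FF CD 4 and FF HFD 1 (adjusted p = 0.00756 to 0.0278). Fcer1g, an adaptor of Fc receptors, had 16.4 RPKM in FF HFD 3 and 9.48 or less elsewhere (log2 fold change 0.53, SE 0.23, adjusted p = 0.108), and was called without FF HFD 1 (adjusted p = 0.0318).

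The remaining general myeloid genes did not pass in either genotype. Ptprc, which encodes the leukocyte antigen CD45, had a log2 fold change of 0.28 in FF mice (95% interval 0.02 to 0.54). Mpeg1, which encodes perforin-2, had 0.29 (-0.04 to 0.62), Cd52 0.31 (-0.18 to 0.80) and Aif1, the marker Iba1, 0.20 (-0.16 to 0.56). Itgam, which encodes CD11b and was under the filter, was at 0.162 to 0.219 RPKM in FF CD and 0.173 to 0.480 in FF HFD mice (log2 fold change 0.16, SE 0.06, adjusted p = 0.112 in the fit without the filter).

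The 4 antigen presentation genes varied widely between mice and passed no test. Cd74 was at 22.0, 18.7, 25.5 and 31.3 RPKM in FF CD and 22.7, 49.5, 65.1, 25.7 and 44.6 in FF HFD mice. It was at 29.0, 34.5, 24.3 and 36.0 RPKM in LKO CD and 42.6, 51.7, 19.1, 43.5 and 18.1 in LKO HFD mice. In each HFD group 3 mice were far above the other 2: FF HFD 1 and 4 and LKO HFD 3 and 5 were the low ones. H2-Aa, H2-Ab1 and H2-Eb1, the chains of the MHC class II molecules themselves, showed the same mice low. The summed RPKM of the 4 genes ranged from 40.7 to 62.5 in FF CD, 51.7 to 80.6 in LKO CD, 46.9 to 136 in FF HFD and 35.7 to 116 in LKO HFD mice.

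In FF mice the diet differences of these genes were as large as those of called members, with log2 fold changes of 0.62 (H2-Ab1) to 0.69 (H2-Eb1), but their adjusted p was 0.154 (Cd74) to 0.204 (H2-Aa) by limma, and the SEs of 0.32 to 0.35 were the largest of the list. In LKO mice they were -0.14 (H2-Eb1, interval -0.87 to 0.58) to 0.06 (Cd74, interval -0.61 to 0.74), and the sign of each turned when certain single mice were left out. The balance within the complex was steady while the total moved: H2-Ab1 was 0.440 to 0.655, H2-Eb1 0.369 to 0.503 and Cd74 1.47 to 2.09 times H2-Aa in every one of the 18 mice.

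The mice with the highest resident Kupffer genes were not always those with the highest MHC class II genes. FF HFD 4 had summed resident Kupffer genes of 84.4 RPKM and summed MHC class II genes of 52.5, and LKO HFD 3 had 69.3 and 38.3. LKO CD 1 had the opposite order, 32.1 and 67.0. The ratio of the sums ran from 0.553 in LKO HFD 3 to 2.09 in LKO CD 1, and its ranges overlapped between FF CD (0.790 to 1.45), LKO CD (1.33 to 2.09), FF HFD (0.622 to 1.55) and LKO HFD mice (0.553 to 1.90). Markers of dendritic cells and of B and plasma cells were low. The 8 dendritic cell markers summed to 0.966 to 1.504 RPKM in FF CD, 1.26 to 1.90 in LKO CD, 1.77 to 2.45 in FF HFD and 1.14 to 2.62 in LKO HFD mice. The B and plasma cell markers that were measured summed to 1.80 to 3.46, 1.86 to 3.99, 1.77 to 3.22 and 2.11 to 5.04 RPKM in the same order, and the part of either in the MHC class II levels was not tested.

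**Figure D3:**
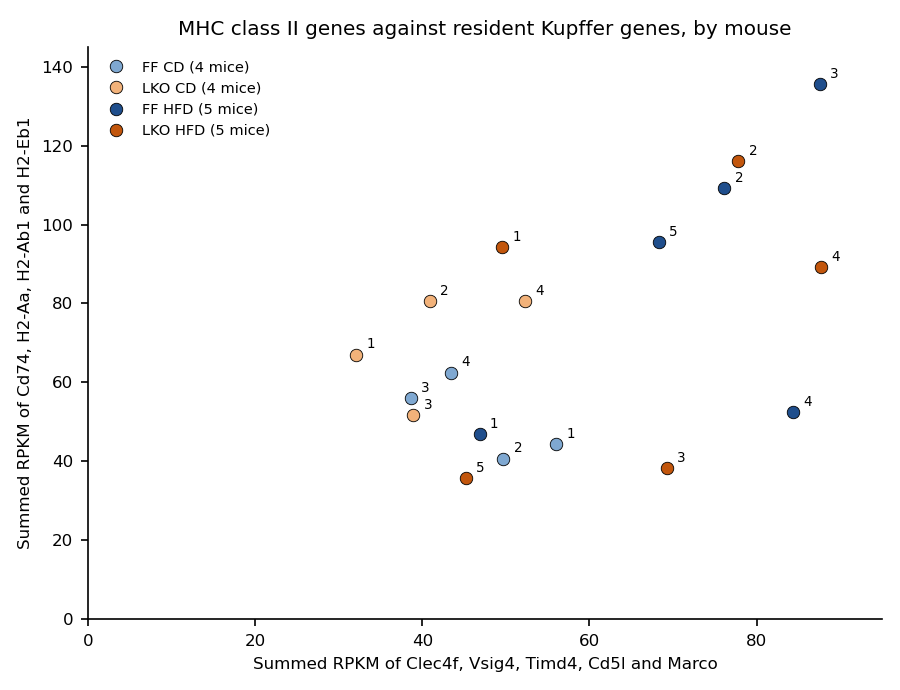
Each point is 1 mouse, with its number: summed RPKM of the 5 resident Kupffer genes on the x axis and of the 4 MHC class II genes on the y axis. FF HFD 4 and LKO HFD 3 lie low at the right, with 52.5 and 38.3 RPKM of MHC class II genes. LKO CD 1, 2 and 4 lie above all FF CD mice, and LKO CD 3 lies among them. The Kupffer sums were 32.1 to 52.3 RPKM in LKO CD and 38.6 to 56.0 in FF CD mice.

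Of the lipid-associated genes, Mmp12 and Lgals3 rose in FF mice on HFD, and FF HFD 2 and 3 had the highest values of Mmp12, Gpnmb, Itgax and Lgals3. Mmp12, macrophage metalloelastase, was at 0.0673, 0.0539, 0.0346 and 0.149 RPKM in FF CD and 0.365, 1.73, 2.55, 0.924 and 0.503 in FF HFD mice. That is 3 to 14 reads against 47 to 248 reads, and the groups did not overlap. The ratio of the means was 15.9, and the fit without the filter called it (log2 fold change 0.95, SE 0.21, adjusted p = 0.00813). In that fit 2.72% of the 20071 genes were called higher. The call held whichever mouse was left out. In LKO mice Mmp12 was at 0.0975, 0.201, 0.0300 and 0.0991 RPKM under CD and 0.424, 0.282, 0.296, 0.0320 and 0.210 under HFD. The highest LKO HFD mouse lay above the lowest FF HFD mouse (0.365), so the HFD groups overlapped.

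Trem2, a lipid receptor of macrophages, was at 0.0816, 0.348, 0.186 and 0.206 RPKM in FF CD and 0.236, 1.57, 0.665, 0.314 and 0.415 in FF HFD mice, or 10 to 47 reads in FF HFD. Only FF HFD 2 exceeded 1 RPKM, and the groups overlapped (log2 fold change 0.39, SE 0.16, adjusted p = 0.134 without the filter). Gpnmb, a membrane glycoprotein of lipid-laden macrophages, was at 0.0410, 0.0736, 0.112 and 0.156 RPKM in FF CD, 0.0926, 1.13, 0.863, 0.199 and 0.428 in FF HFD and 0.0742, 0.244, 0.109, 0 and 0.0430 in LKO HFD mice (log2 fold change 0.45, SE 0.15, adjusted p = 0.0655 for the diet in FF mice without the filter). FF HFD 2 and 3 carried the high values. Itgax, which encodes CD11c, was at 0.122, 0.0922, 0.178 and 0.2004 RPKM in FF CD and 0.218, 0.692, 0.713, 0.266 and 0.365 in FF HFD mice, without overlap, and its adjusted p of 0.0384 in the limma fit without the filter passed while its log2 fold change of 0.32 did not. With a pseudocount of 0.1 in place of 1, which weighs low genes more, Itgax passed both. The log2(RPKM + 1) scale understates the change of genes at such levels.

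Lgals3, which encodes galectin-3 and was the 1 lipid-associated gene to pass the filter, was at 1.91, 2.27, 1.61 and 1.71 RPKM in FF CD and 1.89, 3.85, 5.04, 2.79 and 3.81 in FF HFD mice. It rose 1.85-fold (log2 fold change 0.60, SE 0.17, adjusted p = 0.0176), and its call was lost, by the adjusted p or by the fold, without FF CD 3, FF CD 4, FF HFD 2, FF HFD 3 and FF HFD 5 (adjusted p = 0.0384 to 0.0598). In LKO mice it was at 1.53 ± 0.342 RPKM (SD, n = 4) under CD and 2.49 ± 0.571 (SD, n = 5) under HFD (log2 fold change 0.45, SE 0.17, adjusted p = 0.128). The summed RPKM of the 5 lipid-associated genes ranged from 2.12 to 2.84 in FF CD, 1.49 to 2.79 in LKO CD, 2.80 to 9.83 in FF HFD and 2.60 to 4.56 in LKO HFD mice.

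**Figure D4:**
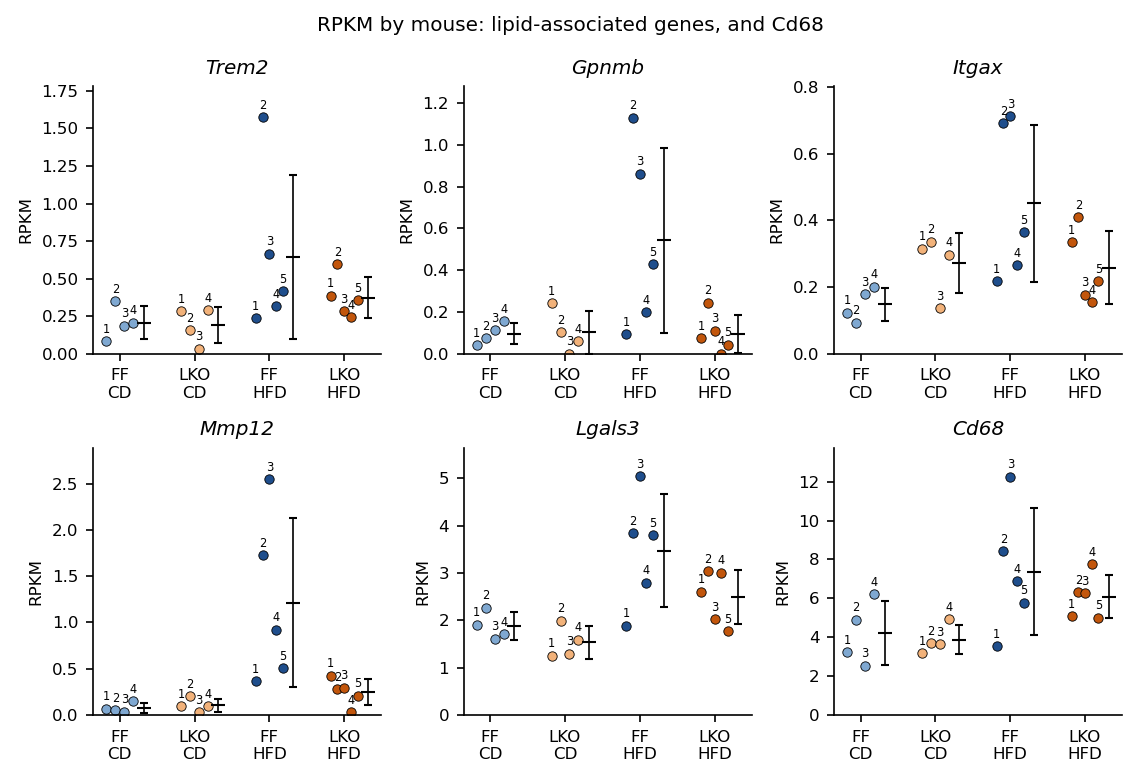
RPKM of the 5 lipid-associated genes and of Cd68 in each mouse, with mouse numbers and the mean and SD of each group. FF HFD 2 and 3 stand highest in FF HFD for Gpnmb, Itgax and Mmp12, and no LKO HFD mouse exceeds 1 RPKM of Trem2, Gpnmb, Itgax or Mmp12.

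Of the monocyte genes, Ccl2, the chemokine that draws monocytes through Ccr2, rose in FF mice. It was at 0.425, 0.396, 0.265 and 0.245 RPKM in FF CD and 0.940, 1.57, 1.84, 0.671 and 0.984 in FF HFD mice, with no overlap even for FF HFD 1, a 3.61-fold difference (log2 fold change 0.70, SE 0.15, adjusted p = 0.00397) that was called whichever mouse was left out. In LKO mice it was at 0.448, 0.748, 0.0921 and 0.638 RPKM under CD and 1.10, 0.399, 0.588, 0.637 and 0.558 under HFD (log2 fold change 0.17, SE 0.15, adjusted p = 0.549). Its receptor Ccr2 was at 0.250, 0.234, 0.309 and 0.392 RPKM in FF CD and 0.305, 0.827, 1.19, 0.406 and 0.5998 in FF HFD mice (log2 fold change 0.34, SE 0.14, adjusted p = 0.138 without the filter). Ly6c2, a surface marker of inflammatory monocytes, had 0.20 (adjusted p = 0.234) and Cx3cr1, the fractalkine receptor, 0.22 (adjusted p = 0.181) in the same limma fit. FF HFD 2 and 3 were the highest FF HFD mice for Ccr2 and Cx3cr1, as they were for the lipid-associated genes.

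In LKO mice HFD called 1 of the 30 members, Clec4f, against 0.965% of all tested genes called higher. The log2 fold change was above 0 in 27 of the 30, all but H2-Aa, H2-Ab1 and H2-Eb1, with a median of 0.41 against 0.07 over all tested genes. Of the tested genes, 65.8% lay above 0. The groups did not overlap in 6 members, Clec4f, Cd68, Siglec1, Cd163, Spi1 and Cd53, all higher under HFD, where 7.71% of all tested genes lay wholly higher. By list the median was 0.50 for the resident Kupffer genes (0.50 in FF mice), 0.51 for the tissue macrophage genes (0.52 in FF), 0.33 for the general myeloid genes (0.53 in FF) and -0.10 for the antigen presentation genes (0.66 in FF). LKO HFD 2 was the highest of its group in 20 of the 38 members and LKO HFD 4 in 13, while LKO HFD 5 was the lowest in 19. A call in 1 genotype and not in the other is no difference between them, which the interaction tests.

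**Figure D5:**
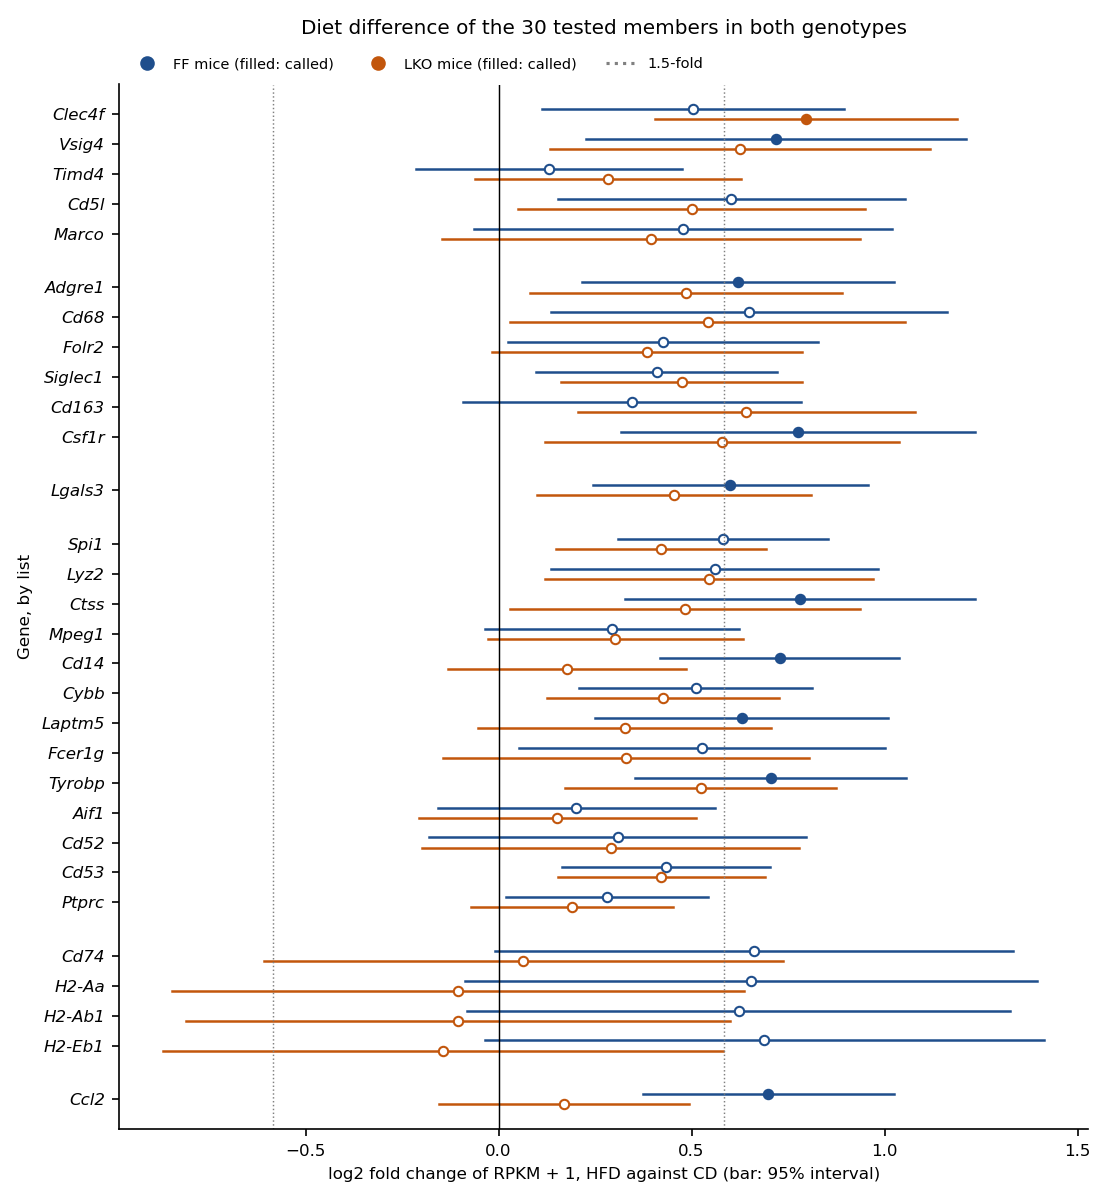
The log2 fold change of HFD against CD for the 30 tested members, grouped by list, in FF and LKO mice, with 95% intervals. Filled points were called: 9 in FF mice and Clec4f in LKO mice. The intervals of the genotypes overlap for every member, and those of the antigen presentation genes are the widest.

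Between the genotypes no member was called. Under CD, 0 of the 30 members passed by limma and 0 by limma voom on estimated reads. Of all tested genes, 0.225% were called in either direction. An unadjusted p under 0.05 by limma was found for 0 members and for 851 of the 11090 tested genes. No tested member had groups without overlap, and 5.07% of all tested genes did. The MHC class II genes were higher in LKO CD than in FF CD mice without passing, with log2 fold changes of 0.34 (Cd74, interval -0.37 to 1.05), 0.49 (H2-Aa, -0.29 to 1.27), 0.49 (H2-Ab1, -0.25 to 1.23) and 0.56 (H2-Eb1, -0.21 to 1.32). Clec4f was lower, also without passing (-0.34, interval -0.76 to 0.07, adjusted p = 0.757 by limma). The median over the 30 members was -0.05, against 0.03 over all tested genes.

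Under HFD, 0 of the 30 members were called between LKO and FF mice by limma or by limma voom. Of all tested genes, 2.07% were called. An unadjusted p under 0.05 by limma was found for 2 members and for 2145 of the 11090 tested genes. The groups overlapped in all 30 members, and 4.67% of all tested genes did not overlap. The log2 fold change was below 0 in 29 of the 30, all but Cd163, with a median of -0.21 against 0.03 over all tested genes. Of the tested genes, 42.6% lay below 0. Cd14 had the lowest (-0.43, interval -0.72 to -0.14, adjusted p = 0.0877 by limma), followed by Ccl2 (-0.40, -0.70 to -0.09), Lgals3 (-0.33, -0.67 to 0.00), Laptm5 (-0.30, -0.66 to 0.06) and Ctss (-0.30, -0.73 to 0.13). Among the resident Kupffer genes, Clec4f averaged 23.9 ± 5.55 RPKM (SD, n = 5) in FF HFD and 23.2 ± 5.93 (SD, n = 5) in LKO HFD mice, and Vsig4 differed by -0.24 on the log2 scale (interval -0.70 to 0.22). Among the genes under the filter, Mmp12 had a log2 fold change of -0.74 (interval -1.16 to -0.32, adjusted p = 0.0697 by limma) and was called without FF HFD 1 (adjusted p = 0.0192). Gpnmb had -0.45 (interval -0.76 to -0.15, adjusted p = 0.123 by limma) and Trem2 -0.21 (interval -0.54 to 0.12).

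A difference of the diet response between the genotypes was not shown for any member. The interaction, the diet difference in LKO minus that in FF mice, called 0 of the 30 members by limma and by limma voom. Of all tested genes, 2.44% were called. An unadjusted p under 0.05 by limma was found for 2 members and for 1830 of the 11090 tested genes. H2-Eb1 (-0.83, interval -1.86 to 0.19), H2-Aa (-0.76, -1.81 to 0.29), H2-Ab1 (-0.73, -1.72 to 0.27) and Cd74 (-0.60, -1.55 to 0.35) had the lowest values with wide intervals. Cd14 (-0.55, -0.99 to -0.11) and Ccl2 (-0.53, -0.99 to -0.07) had narrower ones, which excluded 0 before adjustment. Cd14 was called without FF HFD 1 (adjusted p = 0.0278).

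The median coefficient of variation of the 38 members, the 8 low ones included, was 21.9% in FF CD, 21.5% in LKO CD, 35.4% in FF HFD and 33.0% in LKO HFD mice, against 13.9%, 11.8%, 13.8% and 15.1% over all tested genes. FF HFD 3 was the highest of all 18 mice in 24 members. FF HFD 1, the deepest library, was also the lowest of its group for Cd36, a fatty acid transporter, with 55.4 RPKM against 56.6 to 89.1 in the other FF HFD mice, but lay far above the FF CD mice (2.33 to 5.69). For Plin2, a lipid droplet coat protein, it was at 459 RPKM, within the range of the other FF HFD mice (431 to 502) and above FF CD (75.5 to 189).

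Other macrophage genes were read from lists that were not part of the 38 members. Of 13 genes for complement C1q and phagocytic receptors, 6 rose and none fell: the Fc receptors Fcgr4 (0.96) and Fcgr3 (0.80), the beta-glucan receptor Clec7a (0.86), the mannose receptor Mrc1 (0.69), C1qb (0.61) and Cd36 (3.76), which hepatocytes also make. Fcgr4 was at 1.79, 1.69, 2.02 and 0.978 RPKM in FF CD and 2.29, 4.24, 5.67, 5.02 and 3.71 in FF HFD mice, the ranges apart. The call of Fcgr4 held whichever mouse was left out, as did those of Fcgr3 and Cd36, while Clec7a was lost without FF CD 3 or FF HFD 2, Mrc1 without FF CD 2 or FF CD 3, and C1qb without any 1 of FF CD 1, 2 and 3 and FF HFD 2, 3 and 4. The adjusted p reached 0.107 for C1qb. In LKO mice 0 of these 13 were called by limma (9 at an unadjusted p under 0.05, median 0.55). Of all 11090 tested genes, 2475 had an unadjusted p under 0.05 for the diet in LKO mice. Under HFD all 13 had a log2 fold change below 0 for LKO against FF mice (median -0.21), as did 42.6% of all tested genes. Of the 13, Cd36 was called (-1.88, adjusted p = 0.00504 by limma).

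Of 15 tested cytokine, chemokine and inflammasome genes, 5 rose in FF mice: Il1rn, the antagonist of interleukin 1 (1.33), Ccl6 (1.17), Cxcl10 (1.05), Il1b (0.96) and Cxcl9 (0.82), the last a call that 11 of the 18 left-out mice ended. In LKO mice 2 of the 15 rose, Ccl6 (1.02) and Il1rn (0.82). Both LKO calls were lost without LKO CD 1, LKO CD 3 or LKO HFD 3, with adjusted p up to 0.0786 for Ccl6 and 0.0773 for Il1rn. Ccl6, a chemokine of macrophages, was at 3.77, 7.03, 8.04, 8.18 and 5.19 RPKM in FF HFD and 2.97, 4.48, 6.49, 6.21 and 5.46 in LKO HFD mice, against 1.46 to 2.86 in FF CD and 1.31 to 2.81 in LKO CD. Here the HFD mice lay above the CD mice of their genotype, FF HFD 1 included. Ccl9 (-0.10) and Il18 (-0.27), the most abundant of the list, did not pass in FF mice. Of 6 iron and haem genes, Hmox1, which breaks down haem, rose in both genotypes (0.88 in FF and 0.74 in LKO), while Hpx (0.16) and Blvrb (0.35) were not called in FF mice. The LKO call of Hmox1 was lost without any 1 of the 9 LKO mice or without FF HFD 2 (adjusted p up to 0.131).

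Among 13 tested growth and transcription factor genes of macrophages, Maf rose in FF mice (0.80) and Irf5 fell (-0.63), while the abundant Cebpa (-0.11) and Cebpb (0.22) did not pass. Under HFD Irf5, which drives inflammatory genes, was higher in LKO than in FF mice (2.27 to 3.38 against 1.33 to 1.86 RPKM, log2 fold change 0.60, adjusted p = 4.98e-04 by limma). The FF call of Irf5 was lost without FF CD 3, and its call under HFD without any 1 of FF HFD 3, LKO HFD 1 and LKO HFD 4 (adjusted p = 9.83e-04 to 0.00203), there by the fold. Of 13 other lipid-associated genes, Plin2 (1.89), Cd63 (1.05) and the lysosomal lipase Lipa (0.78) rose and Fabp5 fell (-3.10) in FF mice. Apoe, the most abundant of them, had 0.20 and did not pass. Hepatocytes make several of these as well. The call of Cd63 was lost without any 1 of FF CD 1, FF CD 3, FF HFD 2 and FF HFD 3 (adjusted p = 0.0516 to 0.0789). None of the 13 was called in LKO mice on HFD (2 at an unadjusted p under 0.05). The other MHC genes gave 0 calls of 7 tested in FF mice (4 at an unadjusted p under 0.05) and Tap1 (0.65) in LKO mice by limma, and B2m (0.30) and H2-K1 (0.19) were the most abundant. The call of Tap1 was lost without any 1 of LKO CD 1, LKO CD 3 and LKO HFD 3 (adjusted p = 0.0599 to 0.0752). Of 4 tested pattern recognition genes, Myd88, the adaptor of Toll-like receptors, was called in LKO mice (0.63) and Ly96 (0.36) or any other in FF mice was not (4 at an unadjusted p under 0.05). Myd88 was lost without any 1 of LKO CD 1, LKO CD 3 and LKO HFD 3 (adjusted p = 0.0654 to 0.0786).

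Markers of other liver cells moved at the same time as the macrophage genes. All 8 markers of sinusoidal endothelium were tested and 6 rose in FF mice on HFD: Lyve1 (1.38), Pecam1 (1.09), Oit3 (0.94), Cdh5 (0.86), Clec4g (0.85) and Stab1 (0.59). Clec4g was lost without any 1 of FF CD 2 and FF CD 3 (adjusted p = 0.0643 to 0.0747) and Stab1 without any 1 of FF CD 2, FF CD 3, FF CD 4, FF HFD 2 and FF HFD 4 (adjusted p = 0.0630 to 0.120). The summed RPKM of the 8 was 16.7 to 35.6 in FF CD, 13.3 to 37.1 in LKO CD, 43.4 to 73.3 in FF HFD and 35.1 to 47.3 in LKO HFD mice. The collagens Col1a1 (1.16) and Col3a1 (1.21) rose among 8 stellate cell and fibroblast markers, whose sums overlapped (90.2 to 141 in FF CD and 122 to 166 in FF HFD). In LKO mice on HFD 6 of the 8 were below 0 and none was called by limma (0 at an unadjusted p under 0.05; Col1a1 -0.35, Col3a1 -0.45). Under HFD all 8 were below 0 for LKO against FF mice, and Col1a1 (-1.15, adjusted p = 0.0157 by limma) and Col3a1 (-1.24, adjusted p = 0.0109) were called, Col1a1 not without FF HFD 2 (adjusted p = 0.0507). All 8 were below 0 in the interaction as well, with calls for Col1a1 (-1.51, adjusted p = 0.0364 by limma) and Col3a1 (-1.66, adjusted p = 0.0263). Of all tested genes, 34.2% were below 0 for the diet in LKO mice, 42.6% between genotypes under HFD and 51.3% in the interaction. The interaction call of Col1a1 was lost without any 1 of 13 mice (adjusted p up to 0.0989) and that of Col3a1 without any 1 of FF CD 1, FF CD 3, LKO CD 2, FF HFD 2 and LKO HFD 3 (adjusted p = 0.0501 to 0.0711). Of 8 hepatocyte markers, Cps1 (-1.24), Serpina1c (-0.84) and Apoa1 (-0.72) fell in FF mice, while 3 of the 8 had a log2 fold change above 0. Under HFD 2 of the 8 were called higher in LKO than in FF mice, and 1 was called higher in the interaction. Of all tested genes, 2.07% and 2.44% were called in these comparisons in either direction. The sum of the 8 was 38693 to 46487 in FF CD and 46218 to 56434 in LKO CD mice. Under HFD it was 39589 to 49958 in FF and 44487 to 51151 in LKO mice. Of 7 neutrophil markers 2 were tested, and S100a9 rose in FF mice (0.77) and S100a8 in LKO mice (0.91). The 7 summed to 1.24 to 2.31 RPKM in FF CD and 2.26 to 7.79 in FF HFD mice. In LKO mice they summed to 1.33 to 2.25 RPKM under CD and 3.46 to 6.70 under HFD. T and NK cell markers summed to 2.12 to 2.77 RPKM in FF CD and 1.04 to 2.96 in FF HFD mice. S100a9 was lost without FF CD 2 (adjusted p = 0.0550), and S100a8 when 8 single mice were left out in turn (adjusted p up to 0.117). No tested marker of cholangiocytes (Sox9 -0.31, Epcam 0.34), of erythroid cells (Hba-a1 0.64, Hbb-bs 0.65) or of B and plasma cells (Cd79a 0.03, Jchain -0.03) was called in FF mice on HFD. Of the 5 cholangiocyte markers, Krt19, Krt7, Epcam, Sox9 and Spp1, 3 were tested. The 5 summed to 16.0 to 26.0 RPKM in FF CD, 16.2 to 31.4 in LKO CD, 17.5 to 61.5 in FF HFD and 15.3 to 65.9 in LKO HFD mice. FF HFD 2 and 3 had 61.5 and 54.0 RPKM, and LKO HFD 1 and 2 had 43.3 and 65.9. The part of each marker in these sums is not given, so they were not read as a level of cholangiocytes. Adipocyte and mesothelial markers summed to 0.430 to 2.30 RPKM in FF CD and 0.0906 to 1.52 in FF HFD mice. The part of these cells, or of a changed share of hepatocyte RNA, in the levels of the macrophage genes was not tested.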

How the data were processed

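Liver RNA of 18 mice was sequenced by the authors, who deposited 1 RPKM value per gene and mouse. Per the labels' processing notes, HISAT2 2.0.4, Partek and the mm10 build were used. How reads were counted is not given in the sources used here, nor is their strand. No value was changed before use. Low RPKM values of single-exon genes lie on steps worth 1 read each, which gave the depth per mouse, and reads were then whole (within 0.05) for 33 of the 38 members and 67.4% of the tested genes, and estimated for Itgax, Lyz2, Cd53, Ccr2 and Ly6c2. Each mouse is 1 sample. Genes with a mean of at least 0.5 RPKM were fitted with limma 3.58.1 in R 4.3.3 on log2(RPKM + 1), with 1 coefficient per group over all 18 mice and a trend on the mean. Two-sided p-values were adjusted after Benjamini and Hochberg across 11090 genes, and 95% intervals are unadjusted. Calls need an adjusted p under 0.05 and a fold change over 1.5. The fit was checked on simulated data. All 38 members are named. Of each other list, the rule named up to 4 called genes with the largest change and the 2 with the highest mean RPKM, and further called genes were named after their values were seen to complete a count. A called gene of those lists is not reported here. The members and lists were chosen with earlier results of these data known. The fit was repeated without a filter, with a minimum mean of 1 RPKM, with 0.1 as pseudocount, after rescaling to the same sum or quantile normalization, with the compared groups only, with the replicate number as a block, by limma voom on estimated reads, by the adjusted p alone, and leaving out each mouse. For genes under the filter, and for genes that are no members, alternatives were added after seeing the data. P-values measure the spread between these mice.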

Additional observations from a re-analysis of the deposited data

Results flagged for a closer look

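In 4 of the 152 combinations of a member and a group, 1 mouse stood apart from the others by Dixon's gap test, where chance alone marks about 1 in 20. Folr2 was at 3.01 RPKM in FF HFD 1, below the other FF HFD mice (4.70 to 5.07). Csf1r was at 5.70 RPKM in LKO CD 4, above the other LKO CD mice (3.97 to 4.18). In LKO CD 3, Cd14 was at 0.469 RPKM, below the others (0.705 to 0.725), and Ccr2 was at 0.403 RPKM, below the others (0.462 to 0.468).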

How the results depend on the processing

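The 9 members called in FF mice on HFD became 14 after rescaling each mouse to the same sum and 4 after quantile normalization (Cd14, Csf1r, Ctss and Tyrobp), and ranged from 3 to 16 when 1 mouse was left out. The share of all tested genes called is not given for the alternatives in this section, the replicate block included. The counts here therefore do not separate a change in the members from a change in all genes. The median log2 fold change over all tested genes moved as well. It was 0.07 in the main fit, 0.14 after rescaling and -0.02 after quantile normalization. The 1 member called in LKO mice became 2 with a pseudocount of 0.1, 0 without the filter and 0 with only the compared groups in the fit, and ranged from 0 to 2 with 1 mouse left out. With the replicate number as a block 13 members were called in FF and 4 in LKO mice, and none in the other comparisons, but same-numbered mice share only a number. The correlation of their deviations from the group means was -0.17 to 0.33 and exceeded 0.1 in 10 of 25 pairs, so the replicate block was not read as a pairing. The interaction called 0 to 1 member with 1 mouse left out, and the comparisons between genotypes called 0 of the 30 tested members under every alternative. With 1 mouse left out, the diet difference in LKO mice ran from -0.10 to 0.26 for Cd74, -0.31 to 0.13 for H2-Aa, -0.29 to 0.14 for H2-Ab1 and -0.36 to 0.0796 for H2-Eb1. No other member reported here changed sign. In FF mice the diet differences of uncalled genes near 0 changed sign too. With 1 mouse left out they ran from -0.0276 to 0.0849 for Cd79a, -0.0972 to 0.0993 for Jchain, -0.242 to 0.00340 for Cebpa and -0.0851 to 0.366 for Hpx. Cd79a was -0.107 after quantile normalization and Jchain 0.00620 after rescaling. Vsig4 and Adgre1 were also not called without the filter, after quantile normalization or by limma voom, and Lgals3 not in the last 2 of these. Csf1r, Ctss and Tyrobp were called under every alternative that left no mouse out, and so was Cd14 where it was tested, which the filter at a mean of 1 RPKM did not allow. The cause of these changes was not tested. Members near 1 RPKM and below rest on few reads, and 3 reads of Trem2 correspond to 0.112 RPKM in the shallowest library.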
